A study of Mus musculus with 36 samples.

Results

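Smooth muscle contractile and cytoskeletal genes were followed in mouse lung pericyte-like cells exposed to fluid washed from injured or uninjured lungs. The 34 genes were listed by name for their known roles, with earlier results of these data known. Counts of calls among them, set beside the share over all genes, therefore describe this list and are no test of it. They fall into 15 filament genes, 8 regulatory genes and 11 genes of adhesions and actin linkers. The deposited table held 48795 gene identifiers, of which 15901 passed the filter on low counts and were tested, and all 34 were among these.

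The cells were grown from mouse lung digests, depleted of cells carrying CD31, CD45 or CD326, selected for PDGFRβ and expanded in culture before use. They are therefore cultured stromal cells carried through several selections, not freshly isolated pericytes. Bronchoalveolar lavage fluid (BALF) is saline washed through the airspaces and recovered. The study compared injured BALF, uninjured BALF and media only, each for 6 h and for 24 h. Injured BALF and uninjured BALF were each mixed in equal parts with a reduced-serum medium, and in the media-only wells the same medium was mixed with PBS in place of BALF. No strain, genotype, mouse age or kind of lung injury is given in the labels. Cells came from female and male mice, with 3 female and 3 male libraries for each fluid and time, so that each of the 6 groups held 6 libraries. For the 3 female uninjured BALF libraries of 24 h the description label carries a number other than 24, and their titles and exposure times, which give 24 h, were followed. Nothing in the labels tells whether the libraries within a group are biological or technical repeats, and p-values reflect only the spread between these libraries, which may be technical.

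Contraction in smooth muscle and pericytes comes from myosin filaments pulling on actin filaments. Myosin light chain kinase switches this on by phosphorylating the regulatory light chain, and myosin phosphatase switches it off. Dense plaques and focal adhesions carry the force to the membrane and matrix, and serum response factor (SRF) with cofactors of the myocardin family drives many of the genes through a short DNA element named the CArG box. In the lung, pericytes wrap capillaries, and smooth muscle actin and its partners are used as signs of a contractile or myofibroblast state.

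Total counts lay between 17134840 and 35991683 across the 36 libraries. Pdgfrb, the selection marker, had 256 to 862 CPM (counts scaled by the TMM method to a common library size). The pericyte markers Cd248, Mcam, Cspg4, Notch3 and Rgs5 were above 0 in all 36 libraries, with medians of 330, 147, 95.1, 18.7 and 6.67 CPM. The other 3 pericyte markers were at or near zero: Higd1b was at 0 in all 36 libraries, Kcnj8 in 7 and Abcc9 in 3. Lung fibroblast markers were also present. Fn1, Npnt, Pdgfra, Dcn, Tcf21 and Lum were above 0 in all 36 libraries, with medians of 13500, 235, 110, 49.2, 8.37 and 1.71 CPM. Col13a1 was at 0 in 15 libraries. In 10 of the 12 groups of fluid, time and sex, replicates 1 and 2 resembled each other more than either resembled replicate 3. In those groups they differed by a root mean square of 0.397 to 0.482 on the log2 scale over all genes, against 0.540 to 0.814 for pairs that included number 3. The exceptions were female uninjured BALF and female media only at 24 h, where numbers 2 and 3 were closest. A few libraries stood apart in the contractile genes: female uninjured BALF 24 h replicate 1 was the lowest of its 6 libraries for 28 of the 34 genes, with a median deviation of -0.86 on the log2 scale. Female media only 24 h replicate 3 was also the lowest for 28, female injured BALF 24 h replicate 3 and female media only 6 h replicate 3 were each the lowest for 25, and female media only 24 h replicate 1 was the highest for 21.

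**Figure D1:**
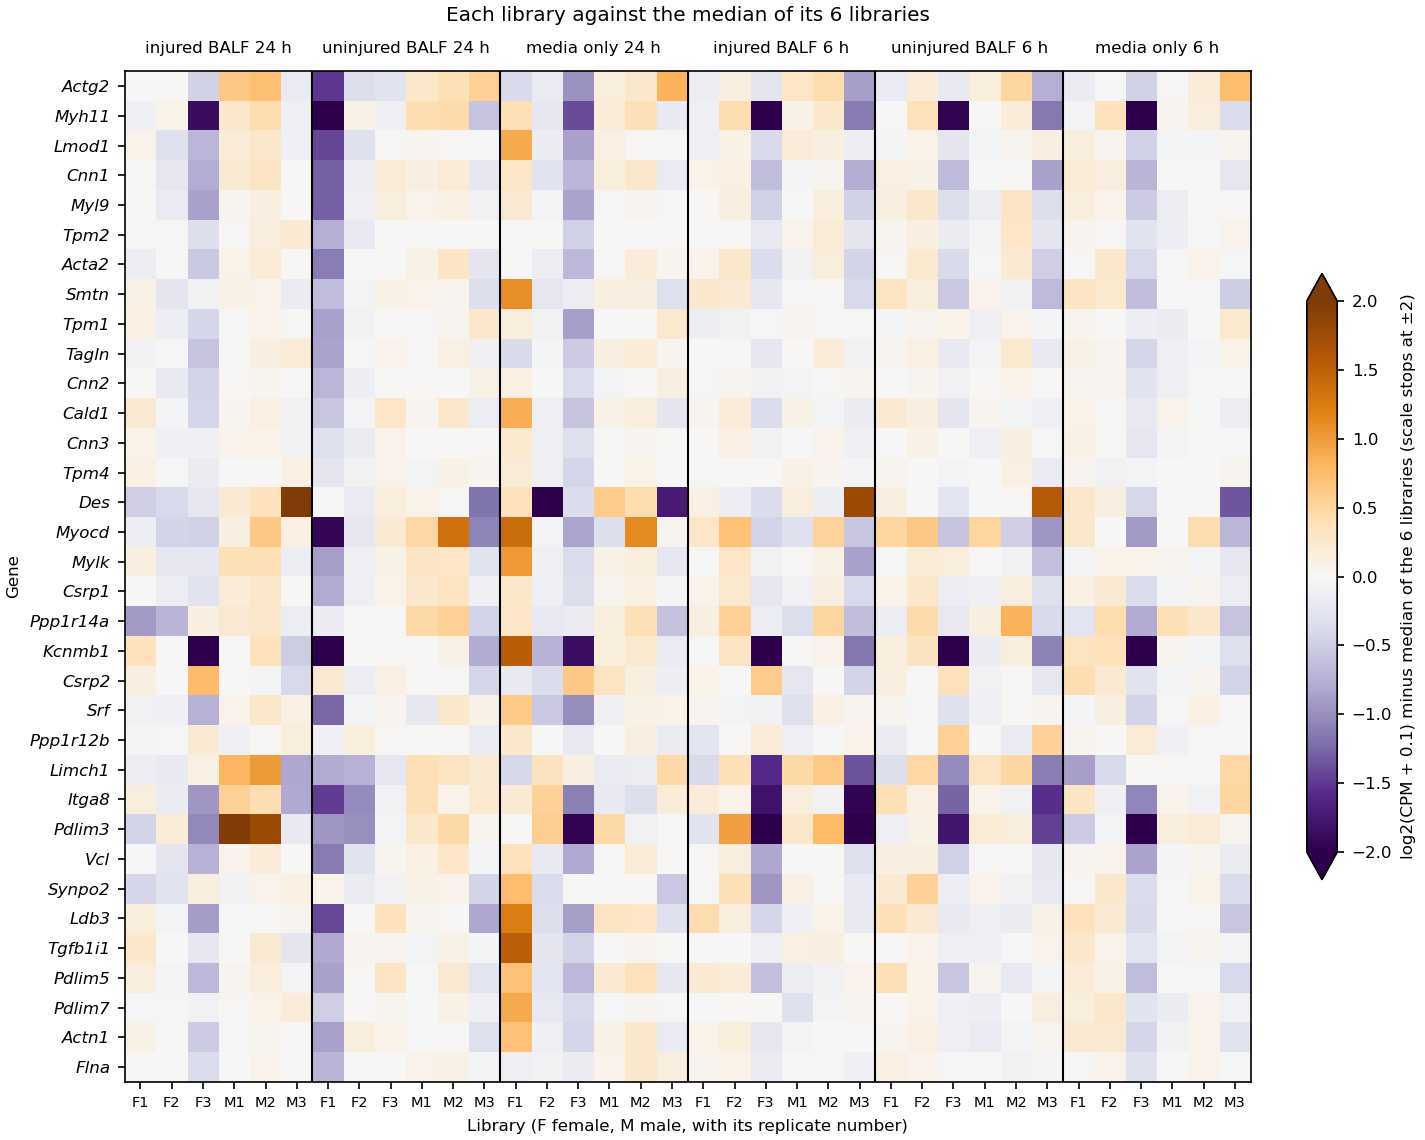
Each library's log2(CPM + 0.1) minus the median of the 6 libraries of its fluid and time, for the 34 genes; colour gives the deviation, and columns are libraries grouped by fluid and time. Female uninjured BALF 24 h replicate 1 shows the lowest column, with a median deviation of -0.86.

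Because SRF acts through the CArG box, the 250 bases before each RefSeq gene start (build GRCm38.p6) were searched for it: CC, then 6 bases that are each A or T, then GG, a pattern that reads alike on both strands. Of the 34 genes, 28 had a promoter entry, and Actg2, Csrp2, Myh11, Myocd, Tagln and Tgfb1i1 had none. A box lay in 5 of the 28, or 17.9%, against 439 of 27025 genes with an entry, or 1.62%. A match describes the letters only and shows no binding. The 4 promoters below are shown because their genes come from all 3 classes and include Srf, which passed no treatment comparison, and capitals mark the CArG box. The sequences are given 5′ to 3′ on the gene's strand and end before the annotated gene, which can begin ahead of the RefSeq start. Of the 250 bases searched, 237 are therefore printed for Srf, 206 for Myl9, 234 for Cnn2 and 250 for Vcl. Distances below are counted to the RefSeq start, so the boxes of Srf, Myl9 and Cnn2 lie nearer the printed end. Srf lies on the minus strand of chromosome 17 (printed bases chr17:46556176-46556412), with boxes 82 and 62 bases before its RefSeq start. Myl9 (chr2:156775214-156775419, plus strand) has its box 161 bases before the RefSeq start, Cnn2 (chr10:79988350-79988583, plus strand) 56 bases, and Vcl (chr14:20929148-20929397, plus strand) 227 bases.
Srf: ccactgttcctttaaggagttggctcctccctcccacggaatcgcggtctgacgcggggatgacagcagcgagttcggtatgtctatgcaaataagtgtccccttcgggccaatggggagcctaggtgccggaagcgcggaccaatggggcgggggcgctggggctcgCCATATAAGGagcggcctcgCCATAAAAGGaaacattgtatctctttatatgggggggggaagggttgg
Myl9: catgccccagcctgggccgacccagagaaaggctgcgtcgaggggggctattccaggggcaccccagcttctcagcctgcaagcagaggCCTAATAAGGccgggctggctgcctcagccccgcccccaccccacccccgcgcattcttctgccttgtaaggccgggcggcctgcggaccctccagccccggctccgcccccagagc
Cnn2: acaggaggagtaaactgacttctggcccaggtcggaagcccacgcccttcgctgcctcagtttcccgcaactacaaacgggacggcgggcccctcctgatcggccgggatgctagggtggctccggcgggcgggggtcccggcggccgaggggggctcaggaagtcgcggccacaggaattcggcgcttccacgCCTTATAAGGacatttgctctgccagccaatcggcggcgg
Vcl: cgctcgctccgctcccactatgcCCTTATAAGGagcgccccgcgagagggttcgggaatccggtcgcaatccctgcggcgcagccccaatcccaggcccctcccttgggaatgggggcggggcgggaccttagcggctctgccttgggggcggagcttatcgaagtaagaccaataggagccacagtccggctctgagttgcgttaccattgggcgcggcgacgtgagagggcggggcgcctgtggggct
The remaining gene with a box, Ldb3, had it 35 bases before one RefSeq start and 109 before the other. In injured BALF at 24 h, 23 of the 34 genes fell against media only, with and without a box, where 12.2% of all genes were called lower. Among the 23 were Myl9, Cnn2, Vcl and Ldb3, and Srf itself did not pass the test. Whether a box went with a fall was not tested. Srf changed by -0.25 ± 0.20 on the log2 scale (SE, edgeR adjusted p = 0.386).

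Per unit of exon length, actins and their partners led the list. Acta2, smooth muscle alpha-actin, had the highest level in each group. It reached 2072 ± 339 RPKM (CPM per kilobase of exon, mean ± SD, n = 6 here and below) in injured BALF at 24 h, against 2908 ± 830 RPKM in uninjured BALF and 3694 ± 680 RPKM in media only at 24 h. Tagln, transgelin, an actin-binding protein, came next with 1082 ± 187 RPKM in injured BALF, 1412 ± 296 RPKM in uninjured BALF and 1595 ± 299 RPKM in media only at 24 h. In media only at 6 h the order was Acta2 with 4287 ± 607 RPKM, Tagln with 1899 ± 241 RPKM, Myl9 with 957 ± 146 RPKM and Actg2 with 897 ± 269 RPKM. Myl9 and Actg2 did not differ from each other beyond this spread. At the other end stood Myocd with 0.289 ± 0.103 RPKM and Pdlim3 with 0.246 ± 0.114 RPKM, also within each other's spread.

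Many contractile genes fell in injured BALF at 24 h. Against uninjured BALF at 24 h, 8 of the 34 fell and none rose, with edgeR's quasi-likelihood test at an adjusted p under 0.05 over all genes tested, where 2.04% of all genes were called lower and 2.38% higher. The 8 were Actg2, Cnn3 and Tpm2 among filament genes, Mylk and Csrp1 among regulatory genes, and Itga8, Vcl and Limch1 among linkers. The median log2 fold change over the 34 was -0.46, against -0.00 over all genes tested, and 33 of 34 lay below zero. Groups did not overlap for 2 of them, Limch1 and Synpo2, against 0.975% of all genes lower without overlap. Since RNA was measured in bulk, fewer cells of a contractile type and less of these RNAs per cell cannot be told apart, here and in every result below. The injured-versus-uninjured and injured-versus-media comparisons share the injured libraries, and those against media share the media libraries.

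This count of 8 depended on single libraries. Without female uninjured BALF 24 h replicate 1, the low library, 16 genes fell, and without female injured BALF 24 h replicate 3, 6 fell. The count was 3 without male injured BALF 24 h replicate 3 or female uninjured BALF 24 h replicate 3. It was 5 without female injured BALF 24 h replicate 2, male injured BALF 24 h replicate 1, male uninjured BALF 24 h replicate 1 or male uninjured BALF 24 h replicate 2. With libraries 1 and 2 of each group summed, which lowers the number of libraries, Csrp1 alone passed. No gene passed with the closest pair of each group summed, or without all libraries of number 2.

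At 6 h no contractile gene passed between injured and uninjured BALF, where 1.46% of all genes were called lower and 1.97% higher. EdgeR called 0 of 34, DESeq2 also 0, and none had an unadjusted p under 0.05. The median log2 fold change was -0.11, against 0.00 over all genes, and 28 of 34 lay below zero. Cnn2 was the 1 gene whose groups did not overlap, lower in injured BALF, while 1.36% of all genes were lower without overlap.

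Against media only, 23 of the 34 genes fell in injured BALF at 24 h and 12 at 6 h, and none rose. Over all genes, 12.2% were called lower and 11.5% higher at 24 h, and 11.4% lower and 13.9% higher at 6 h. Filament genes made up 12 of the 23 at 24 h and 3 of the 12 at 6 h, regulatory genes 4 and 4, and linkers 7 and 5. The median log2 fold change of the 34 was -0.82 at 24 h and -0.43 at 6 h, against -0.01 over all genes at either time. By class at 24 h the median was -0.66 for filament genes, -1.08 for regulatory genes and -0.80 for linkers. Groups did not overlap for 11 genes at 24 h and 9 at 6 h, always with injured BALF lower, against 4.08% and 5.87% of all genes. Of the 12 that fell at 6 h, 10 also fell at 24 h, the exceptions being Pdlim5 and Ppp1r12b. All 8 genes that fell against uninjured BALF at 24 h were among the 23. Leaving out any 1 library gave 18 to 25 calls at 24 h and 10 to 14 at 6 h. The 18 came without female media only 24 h replicate 1, and likewise without male injured BALF 24 h replicate 3.

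In uninjured BALF against media only, no gene passed at 24 h and 7 fell at 6 h, and none rose at either time. Over all genes, 0.352% were called lower and 0.516% higher at 24 h, and 7.82% lower and 10.6% higher at 6 h. The 7 at 6 h were Cnn3, Lmod1, Mylk, Ppp1r12b, Myocd, Synpo2 and Ldb3, and all 7 were also among the 12 that fell in injured BALF at that time. For 6 genes every uninjured library at 6 h lay below every media library, against 3.87% of all genes. The median was -0.35 at 24 h and -0.30 at 6 h, against -0.00 and 0.00 over all genes. At 24 h edgeR and DESeq2 each called 0. An unadjusted p under 0.05 was seen there for 10 genes, and the share of all genes at that looser level is not given here. Without female media only 24 h replicate 3, the lowest of that group, 1 gene was called. Group means ran in the order injured, uninjured, media, lowest to highest, for 32 of 34 genes at 24 h and for 26 at 6 h. The share of all genes in this order is not given here. Many of the 34 are low or high in the same libraries, so they do not count as separate observations.

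**Figure D2:**
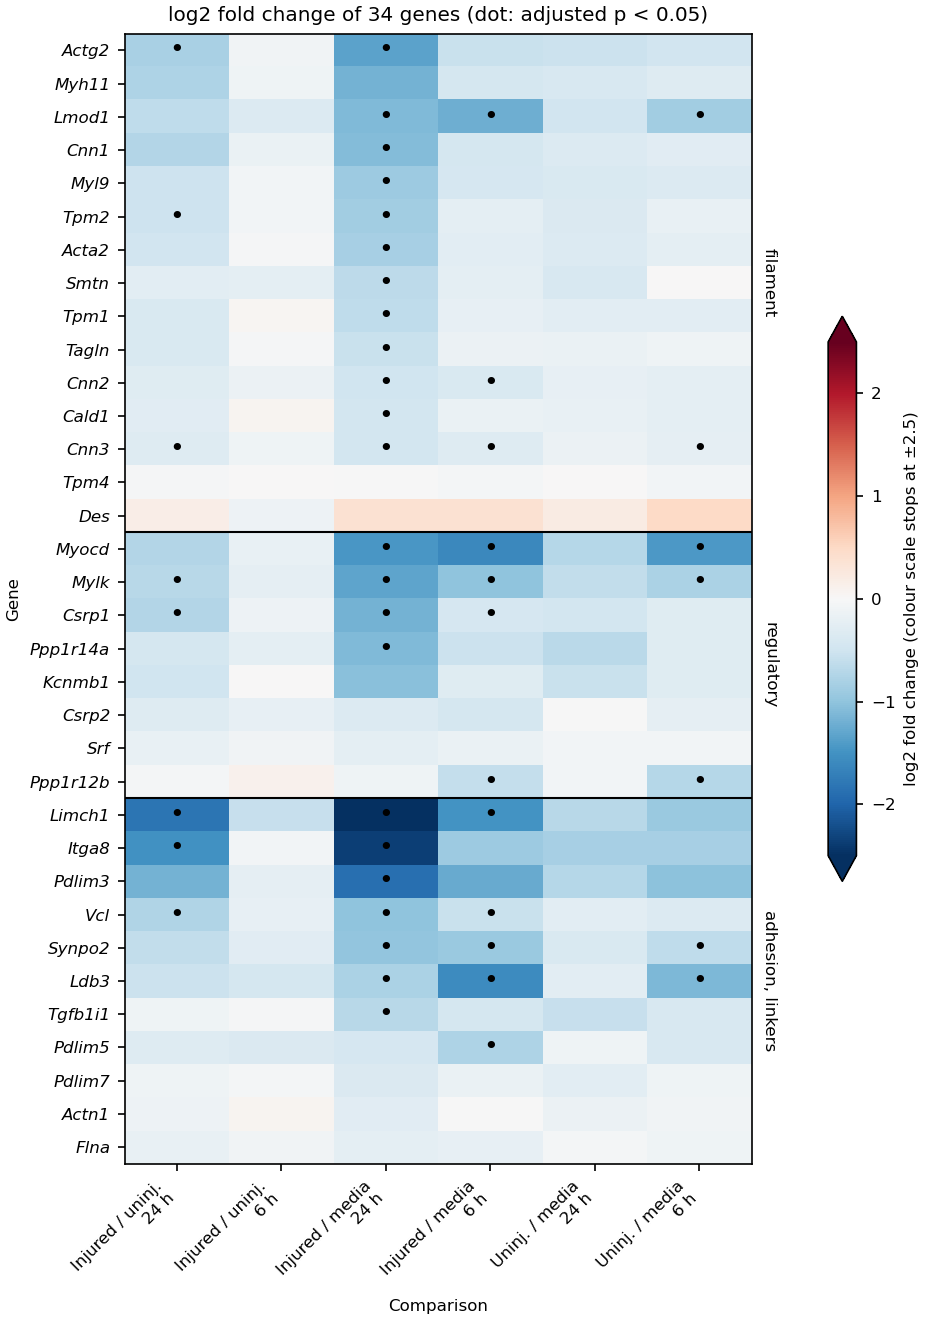
Log2 fold changes of the 34 genes (down the page, by class) in the 6 treatment comparisons (across), from the edgeR fit; blue is lower and red higher in the group named first, and a dot marks an adjusted p under 0.05. Injured BALF against media at 24 h has 23 dots, and injured against uninjured BALF at 6 h has none.

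Among filament genes, smooth muscle alpha-actin itself, Acta2 (ENSMUSG00000035783, chr19:34241090-34255590, minus strand, GRCm38), fell in injured BALF against media at 24 h and passed no other treatment comparison. At 24 h it had 3228 to 5372 CPM (median 4712) in injured BALF, 3130 to 8454 (median 6820) in uninjured BALF and 5328 to 9650 (median 8526) in media only. At 6 h it had 5867 to 9691 CPM (median 8043) in injured BALF, 5857 to 9733 (median 8214) in uninjured BALF and 7147 to 11280 (median 9453) in media only. Ranges overlapped at both times. Female uninjured BALF 24 h replicate 1 gave the 3130, and the other 5 uninjured libraries all lay above every injured one. Against media at 24 h the log2 fold change was -0.83 ± 0.18 (SE, edgeR adjusted p = 0.000934). Against uninjured BALF at 24 h it was -0.49 ± 0.18 and did not pass (edgeR adjusted p = 0.123).

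Actg2, the gamma-actin of visceral smooth muscle (chr6:83512905-83536265, minus strand), had larger fold changes in value than Acta2 at 24 h, a difference that was not tested. Its CPM at 24 h were 312 to 715 (median 431) in injured BALF, 314 to 1314 (median 913) in uninjured BALF and 623 to 2186 (median 1230) in media only. At 6 h they were 509 to 1265 (median 943) in injured BALF, 579 to 1404 (median 990) in uninjured BALF and 946 to 2173 (median 1305) in media only. The ranges overlapped at both times. At 24 h the injured range met the others through female uninjured BALF replicate 1 and female media only replicate 3, the lowest of their groups. Against uninjured BALF at 24 h the log2 fold change was -0.81 ± 0.23 (edgeR adjusted p = 0.0431), a call that was lost without any of 13 of the 36 libraries, up to an adjusted p of 0.151 without female uninjured BALF 24 h replicate 3. Against media at 24 h it was -1.34 ± 0.24 (edgeR adjusted p = 0.000128). These actins are close paralogs, and the sources used here do not give how their shared reads were assigned, so their separate values are uncertain.

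Tagln (chr9:45929619-45936058, minus strand) and Cnn1, calponin 1, which binds actin and slows myosin (chr9:22099216-22109630, plus strand), are both used as smooth muscle markers. Tagln had 1462 to 2527 CPM (median 2203) in injured BALF, 1648 to 3245 (median 2991) in uninjured BALF and 2330 to 3789 (median 3337) in media only at 24 h. The 6 h values were 2971 to 3875 (median 3427) in injured BALF, 3052 to 4132 (median 3479) in uninjured BALF and 2896 to 4187 (median 3910) in media only. Both sets overlapped between fluids. Tagln fell against media at 24 h by 0.55 ± 0.13 on the log2 scale (edgeR adjusted p = 0.00244), and against uninjured BALF at 24 h its change of -0.39 ± 0.13 did not pass (edgeR adjusted p = 0.0902). Tagln overlaps Pcsk7 on the other strand, and the sources used here do not give whether the counting used strand.

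Cnn1 at 24 h ranged over 211 to 444 CPM (median 361) in injured BALF, 256 to 714 (median 627) in uninjured BALF and 464 to 916 (median 756) in media only. Its 6 h range was 441 to 820 (median 755) in injured BALF, 471 to 927 (median 855) in uninjured BALF and 590 to 1111 (median 970) in media only. The injured and media libraries did not overlap at 24 h, and did at 6 h. Its log2 fold change against media at 24 h was -1.08 ± 0.23 (edgeR adjusted p = 0.000999). Against uninjured BALF at 24 h it was -0.73 ± 0.23 and missed the threshold (edgeR adjusted p = 0.0667), where DESeq2 gave an adjusted p of 0.0316.

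The other calponins are Cnn3 and Cnn2. Cnn3, the acidic calponin, had 365 to 412 CPM (median 387) in injured BALF, 406 to 530 (median 503) in uninjured BALF and 437 to 639 (median 539) in media only at 24 h. After 6 h it had 415 to 483 (median 444) in injured BALF, 442 to 518 (median 472) in uninjured BALF and 485 to 611 (median 569) in media only. Injured and media libraries did not overlap at either time. Its log2 fold change was -0.31 ± 0.08 against uninjured BALF at 24 h (edgeR adjusted p = 0.0192) and -0.47 ± 0.08 against media at 24 h (edgeR adjusted p = 9.11e-05). The call against uninjured BALF was lost without any of 3 libraries, up to an adjusted p of 0.0948 without female uninjured BALF 24 h replicate 3. Cnn3 also fell in uninjured BALF against media at 6 h, by 0.22 ± 0.08 (edgeR adjusted p = 0.0485), a call lost without any of 18 libraries, up to an adjusted p of 0.129 without female media only 6 h replicate 1. Cnn2, the calponin of non-muscle cells whose promoter is printed above, fell in injured BALF against media by 0.51 at 24 h (edgeR adjusted p = 0.000262) and by 0.38 at 6 h (edgeR adjusted p = 0.00318), without overlap at either time.

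Of the motor genes, Myl9 passed against media and Myh11 did not, and the difference between them was not tested. Myl9, the regulatory light chain that the kinase phosphorylates, had 329 to 661 CPM (median 604) in injured BALF, 356 to 963 (median 874) in uninjured BALF and 611 to 1281 (median 1099) in media only at 24 h. Earlier, at 6 h, it had 641 to 987 (median 886) in injured BALF, 689 to 1072 (median 874) in uninjured BALF and 803 to 1283 (median 1154) in media only. The lowest value at 24 h came in each fluid from 1 female library that lay well below the other 5. Myl9 fell against media at 24 h by 0.91 ± 0.20 (edgeR adjusted p = 0.0012), and its change of -0.52 ± 0.20 against uninjured BALF did not pass (edgeR adjusted p = 0.144).

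Myh11, the smooth muscle myosin heavy chain (chr16:14194535-14291372, minus strand), had a larger standard error than the light chain. It had 91.0 to 448 CPM (median 332) in injured BALF, 116 to 799 (median 591) in uninjured BALF and 275 to 963 (median 732) in media only at 24 h. For 6 h the values were 134 to 814 (median 608) in injured BALF, 173 to 862 (median 665) in uninjured BALF and 187 to 1015 (median 799) in media only. All ranges overlapped, and the lowest library of each group was a female one, replicate 3 in 5 groups and replicate 1 in uninjured BALF at 24 h. Its log2 fold change at 24 h was -0.78 ± 0.46 against uninjured BALF (edgeR adjusted p = 0.425) and -1.18 ± 0.47 against media (edgeR adjusted p = 0.0671). Neither passed.

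Tropomyosins, which lie along actin and gate myosin, were represented by Tpm1, Tpm2 and Tpm4. Tpm2 had 457 to 660 CPM (median 568) in injured BALF, 527 to 910 (median 893) in uninjured BALF and 793 to 1115 (median 1098) in media only at 24 h. At 6 h it had 758 to 1028 (median 899) in injured BALF, 778 to 1126 (median 918) in uninjured BALF and 892 to 1134 (median 1084) in media only. Injured and media libraries did not overlap at 24 h, and of the uninjured libraries only female replicate 1 reached the injured range. Tpm2 fell by 0.51 ± 0.11 against uninjured BALF (edgeR adjusted p = 0.00627) and by 0.87 ± 0.11 against media (edgeR adjusted p = 2.14e-06), and neither call was lost when any 1 of the 36 libraries was left out.

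Tpm1 had 1191 to 1729 CPM (median 1600) in injured BALF, 1166 to 2519 (median 2118) in uninjured BALF and 1347 to 2958 (median 2489) in media only at 24 h. The 6 h values were 2246 to 2556 (median 2449) in injured BALF, 2183 to 2484 (median 2346) in uninjured BALF and 2518 to 3295 (median 2777) in media only. The injured range at 24 h overlapped the other 2 only through 1 low female library of uninjured BALF and 1 of media. Tpm1 fell against media at 24 h by 0.63 ± 0.14 (edgeR adjusted p = 0.00103), and its change of -0.38 ± 0.14 against uninjured BALF did not pass (edgeR adjusted p = 0.116). Tpm4, found in many non-muscle cells, stayed between 989 and 1547 CPM in all 36 libraries, with a log2 fold change of -0.02 ± 0.08 against media at 24 h (edgeR adjusted p = 0.914).

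**Figure D3:**
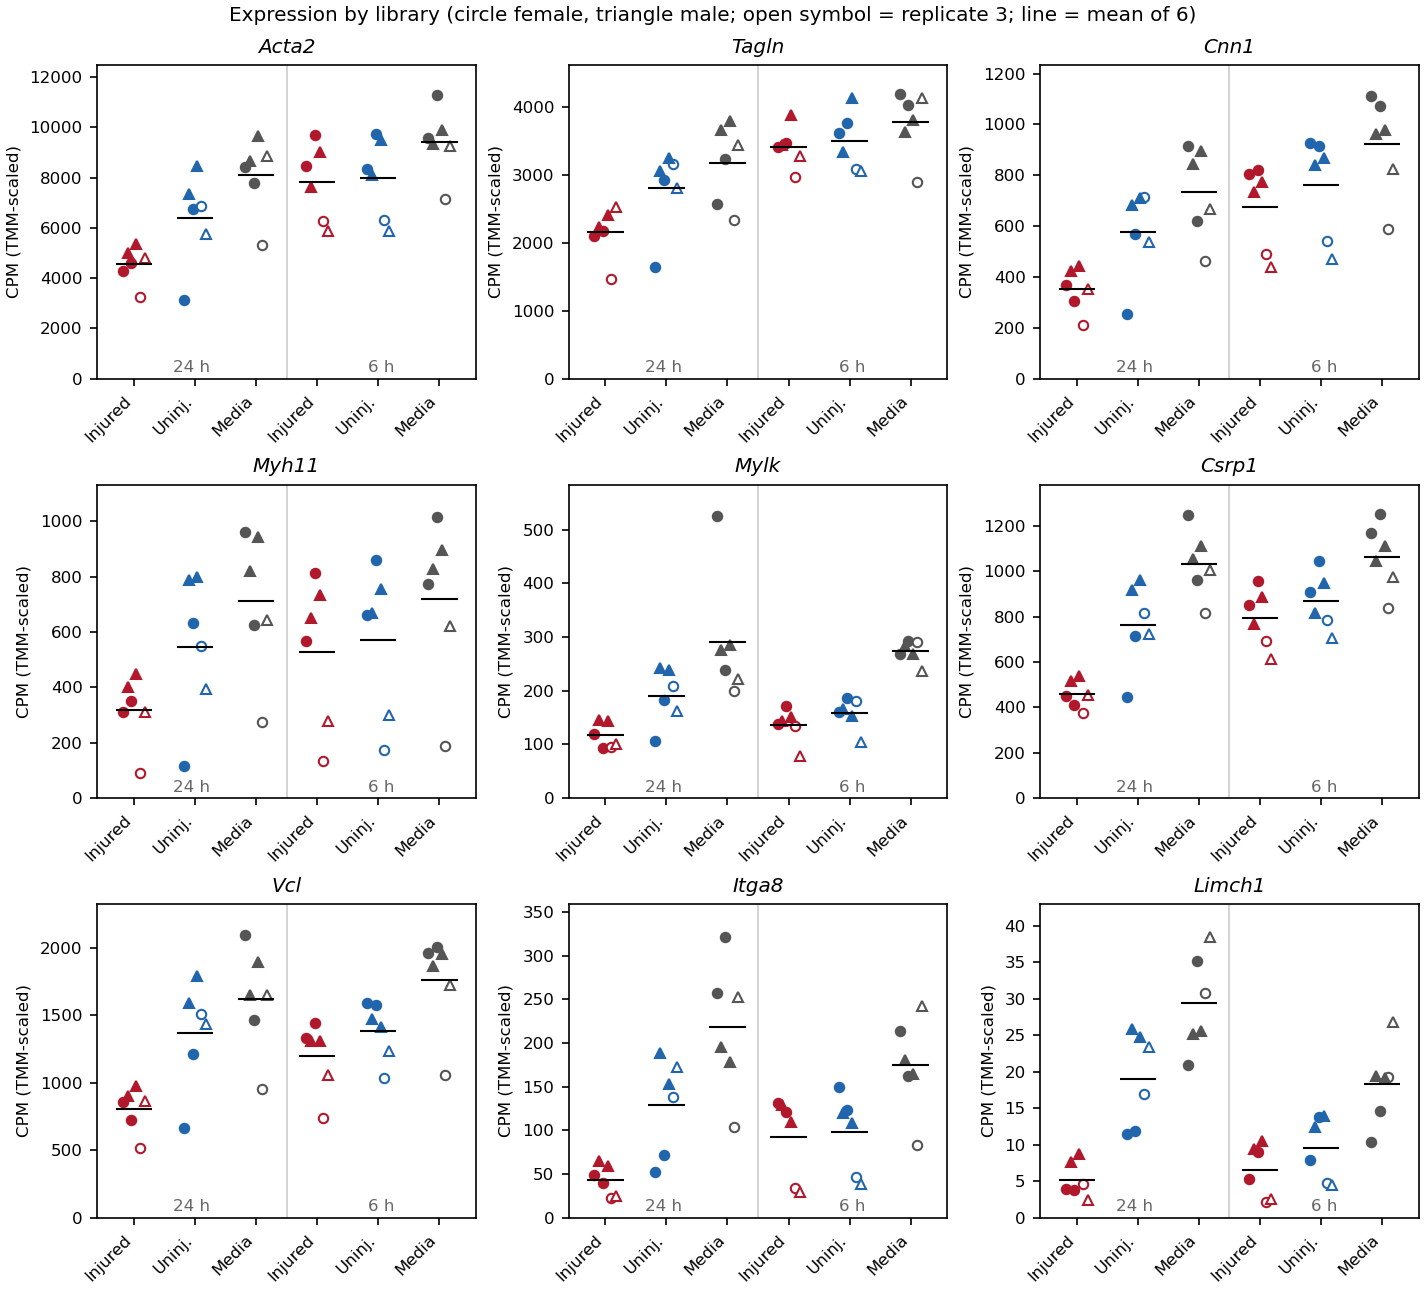
CPM of 9 genes in each library by fluid (injured BALF, uninjured BALF, media only) at 24 h (left) and 6 h (right); circles are female and triangles male libraries, open symbols are replicate 3, and the line is the mean of 6. Acta2 in injured BALF at 24 h lies between 3228 and 5372 CPM, and Limch1 there lies below every library of the other fluids at 24 h.

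The remaining filament genes were Smtn, Lmod1, Cald1 and Des. Lmod1, leiomodin, which nucleates actin filaments in smooth muscle, fell in both BALF groups at 6 h. It had 82.5 to 121 CPM (median 108) in injured BALF, 114 to 148 (median 135) in uninjured BALF and 181 to 281 (median 251) in media only at 6 h. Both BALF groups lay below every media library at that time. The log2 fold change against media was -1.21 ± 0.21 for injured BALF at 6 h (edgeR adjusted p = 7.68e-05), -0.86 ± 0.21 for uninjured BALF at 6 h (edgeR adjusted p = 0.0039) and -1.11 ± 0.21 for injured BALF at 24 h (edgeR adjusted p = 0.000268). Smtn, smoothelin, fell against media at 24 h in injured BALF by 0.66 ± 0.21 (edgeR adjusted p = 0.019), and Cald1, caldesmon, an inhibitor of actin-activated myosin, by 0.47 ± 0.17 (edgeR adjusted p = 0.0465). The Smtn call was lost without any of 3 of them and the Cald1 call without any of 27, up to adjusted p of 0.12 and 0.285 without female media only 24 h replicate 1. Without that library the log2 fold change was -0.38 for Smtn and -0.21 for Cald1.

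Des, desmin of the intermediate filaments, passed no treatment comparison and was high in single male libraries. It reached 165 CPM in male injured BALF 6 h replicate 3, 160 in male uninjured BALF 6 h replicate 3 and 158 in male injured BALF 24 h replicate 3, while the other 5 libraries of those groups had at most 53.4, 58.6 and 34.8 CPM. The summed level of 6 mesothelial markers was also highest in those groups' male replicate 3 libraries, at 143, 157 and 113 CPM. So were the sums of 6 endothelial markers, at 168, 162 and 144 CPM, and of 4 epithelial markers, at 14.9, 16.2 and 8.27 CPM. The part of these markers in the Des values was not tested. Des was low in the 4 libraries whose description numbers begin differently from the rest, none of them of injured BALF. On the log2 scale it deviated from its group median by -1.36 in male media only 6 h replicate 3 and -2.09 in female media only 24 h replicate 2. The deviation was -1.73 in male media only 24 h replicate 3 and -1.18 in male uninjured BALF 24 h replicate 3. Des had a log2 fold change of 0.38 ± 0.44 in injured BALF against media at 24 h (edgeR adjusted p = 0.576).

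Among regulatory genes, Mylk, myosin light chain kinase (chr16:34745210-35002420, plus strand), fell in injured BALF at both times and in uninjured BALF at 6 h. At 24 h it had 94.1 to 145 CPM (median 111) in injured BALF, 106 to 243 (median 196) in uninjured BALF and 200 to 525 (median 258) in media only. Its 6 h range was 77.6 to 172 CPM (median 141) in injured BALF, 105 to 186 (median 162) in uninjured BALF and 236 to 293 (median 276) in media only. At 24 h the injured group lay below all media libraries, and at 6 h both BALF groups did. Against media, Mylk fell in injured BALF by 1.32 ± 0.20 at 24 h (edgeR adjusted p = 1.74e-05) and by 1.01 ± 0.20 at 6 h (edgeR adjusted p = 0.000335), and in uninjured BALF by 0.79 ± 0.20 at 6 h (edgeR adjusted p = 0.00492). Between injured and uninjured BALF at 24 h it fell by 0.70 ± 0.20 (edgeR adjusted p = 0.0356), a call lost without any of 9 libraries, up to an adjusted p of 0.141 without female uninjured BALF 24 h replicate 3.

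Of the phosphatase genes, Ppp1r14a, an inhibitor of myosin phosphatase, fell in injured BALF against media at 24 h by 1.11 ± 0.26 (edgeR adjusted p = 0.00264), with no overlap, at 2.34 to 5.47 CPM in injured BALF and 5.67 to 11.5 CPM in media only. Ppp1r12b, a regulatory subunit of the phosphatase, overlapped media in both BALF groups at 24 h and lay below it at 6 h. At 24 h it had 116 to 142 CPM in injured BALF, 117 to 147 CPM in uninjured BALF and 119 to 164 CPM in media only. After 6 h it had 81.3 to 111 CPM (median 97.0) in injured BALF, 70.9 to 117 (median 79.3) in uninjured BALF and 136 to 165 (median 144) in media only. Against media at 6 h it fell by 0.60 ± 0.12 in injured BALF (edgeR adjusted p = 0.000234) and by 0.72 ± 0.12 in uninjured BALF (edgeR adjusted p = 5.91e-05). At 24 h the change in injured BALF was -0.12 ± 0.11 (edgeR adjusted p = 0.5). Ppp1r12b overlaps Syt2 on the other strand.

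Myocd, myocardin, the smooth muscle cofactor of SRF (chr11:65176561-65269989, minus strand), had 0.361 to 0.889 CPM (median 0.538) in injured BALF, 0.150 to 2.32 (median 0.857) in uninjured BALF and 0.542 to 2.90 (median 1.05) in media only at 24 h. At 6 h it had 0.334 to 0.947 (median 0.557) in injured BALF, 0.291 to 1.07 (median 0.701) in uninjured BALF and 0.997 to 2.66 (median 1.96) in media only. Injured and media libraries overlapped at 24 h, and did not at 6 h. Against media it fell in injured BALF by 1.45 ± 0.47 at 24 h (edgeR adjusted p = 0.0249) and by 1.62 ± 0.47 at 6 h (edgeR adjusted p = 0.0107), and in uninjured BALF by 1.43 ± 0.46 at 6 h (edgeR adjusted p = 0.0286). The calls in injured BALF at 24 h and in uninjured BALF at 6 h were each lost without any of 5 libraries, up to adjusted p of 0.116 and 0.0723.

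Srf (chr17:46548329-46556175, minus strand), whose promoter with 2 boxes is printed above, passed none of the 6 treatment comparisons. It had 48.8 to 98.7 CPM (median 81.8) in injured BALF, 40.6 to 117 (median 96.9) in uninjured BALF and 48.1 to 150 (median 97.6) in media only at 24 h. Earlier, at 6 h, it had 82.2 to 110 (median 101) in injured BALF, 89.6 to 113 (median 109) in uninjured BALF and 82.6 to 125 (median 113) in media only. All ranges overlapped, with median levels within the spread of each group.

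Csrp1, a LIM-domain protein of the actin cytoskeleton (chr1:135720061-135752232, plus strand), had the lowest adjusted p of the 34 genes in both 24 h comparisons of injured BALF. At 24 h it had 376 to 541 CPM (median 454) in injured BALF, 447 to 964 (median 770) in uninjured BALF and 818 to 1247 (median 1030) in media only. For 6 h the values were 612 to 958 (median 809) in injured BALF, 707 to 1044 (median 863) in uninjured BALF and 839 to 1252 (median 1077) in media only. At 24 h no injured library reached the media range, and the uninjured range met the injured one through female replicate 1. It fell at 24 h by 0.73 ± 0.14 against uninjured BALF (edgeR adjusted p = 0.00133) and by 1.18 ± 0.14 against media (edgeR adjusted p = 5.14e-07). With libraries 1 and 2 summed it still passed against uninjured BALF (edgeR adjusted p = 0.0465). It did not pass there with the closest pair of each group summed, or without all libraries of number 2. Its relative Csrp2 passed in none of the 6 treatment comparisons, nor did Kcnmb1, the smooth muscle subunit of a calcium-activated potassium channel, whose log2 fold change in injured BALF against media at 24 h was -1.05 ± 0.55 (edgeR adjusted p = 0.173). Kcnmb1 overlaps a protein-coding gene on the other strand.

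At 24 h the linkers included the largest fold changes of injured BALF against media among the 34 genes. Limch1, a LIM and calponin-homology protein that activates non-muscle myosin (chr5:66745827-67057158, plus strand), had 2.40 to 8.76 CPM (median 4.31) in injured BALF, 11.5 to 25.9 (median 20.1) in uninjured BALF and 20.96 to 38.4 (median 28.1) in media only at 24 h. At 6 h it had 2.21 to 10.5 (median 7.09) in injured BALF, 4.49 to 13.9 (median 10.1) in uninjured BALF and 10.4 to 26.7 (median 19.2) in media only. At 24 h every injured library lay below every library of the other fluids. The log2 fold change was -1.83 ± 0.34 against uninjured BALF (edgeR adjusted p = 0.00147) and -2.53 ± 0.35 against media (edgeR adjusted p = 5.61e-06), or 0.280 and 0.174 times the level there. Neither call was lost when any 1 library was left out.

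Itga8, integrin alpha-8, a matrix receptor of smooth muscle and mesenchymal cells (chr2:12106632-12301922, minus strand), had 22.8 to 64.6 CPM (median 44.4) in injured BALF, 52.2 to 189 (median 146) in uninjured BALF and 103 to 322 (median 224) in media only at 24 h. The 6 h values were 29.9 to 131 (median 116) in injured BALF, 38.6 to 150 (median 114) in uninjured BALF and 82.9 to 243 (median 173) in media only. Injured and media libraries were apart at 24 h, and the fluids overlapped at 6 h. Itga8 fell at 24 h by 1.51 ± 0.39 against uninjured BALF (edgeR adjusted p = 0.0221) and by 2.34 ± 0.40 against media (edgeR adjusted p = 9.37e-05). The call against uninjured BALF was lost without any of 3 libraries, up to an adjusted p of 0.103 without female uninjured BALF 24 h replicate 3.

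Vcl, vinculin, which ties actin to integrin adhesions (chr14:20929398-21033676, plus strand, just after the promoter printed above), had 513 to 975 CPM (median 860) in injured BALF, 668 to 1790 (median 1470) in uninjured BALF and 950 to 2098 (median 1651) in media only at 24 h. Its 6 h range was 740 to 1444 (median 1308) in injured BALF, 1036 to 1587 (median 1440) in uninjured BALF and 1058 to 2005 (median 1909) in media only. Again 1 low female library in each of the other fluids closed the gap at 24 h. Vcl fell by 0.75 ± 0.20 against uninjured BALF at 24 h (edgeR adjusted p = 0.0228) and by 1.01 ± 0.20 against media at 24 h (edgeR adjusted p = 0.000389). The call against uninjured BALF was lost without any of 5 libraries, up to an adjusted p of 0.113 without female uninjured BALF 24 h replicate 3. Vcl overlaps Ap3m1 on the other strand.

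The remaining linkers that passed did so against media. Synpo2, an actin-bundling protein of smooth muscle, fell in injured BALF by 1.00 ± 0.19 at 24 h (edgeR adjusted p = 0.000258) and by 0.92 ± 0.19 at 6 h (edgeR adjusted p = 0.000493), without overlap at either time. Ldb3, a PDZ-LIM protein of striated Z-discs, fell by 0.80 ± 0.28 at 24 h (edgeR adjusted p = 0.0391) and by 1.57 ± 0.29 at 6 h (edgeR adjusted p = 0.00016), the call at 24 h being lost without any of 8 libraries. Without female media only 24 h replicate 1 the 24 h change of Ldb3 was -0.36 (edgeR adjusted p = 0.289). Pdlim5, which binds alpha-actinin, fell at 6 h by 0.78 ± 0.22 (edgeR adjusted p = 0.00887). Pdlim3, its relative, fell at 24 h by 1.88 ± 0.62 (edgeR adjusted p = 0.0279) at levels of 0.0832 to 1.38 CPM in injured BALF and 0.325 to 2.33 CPM in media only, and lost the call without any of 5 libraries. Tgfb1i1, a focal adhesion protein, fell at 24 h by 0.69 ± 0.21 (edgeR adjusted p = 0.0145) and lost the call without female media only 24 h replicate 1, where its log2 fold change was -0.24 (edgeR adjusted p = 0.135).

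The general linkers Flna, Actn1 and Pdlim7, filamin A, alpha-actinin 1 and a PDZ-LIM protein, passed in no treatment comparison. Flna had a log2 fold change of -0.24 ± 0.10 in injured BALF against media at 24 h (edgeR adjusted p = 0.0662), Actn1 -0.28 ± 0.17 (edgeR adjusted p = 0.23) and Pdlim7 -0.37 ± 0.14 (edgeR adjusted p = 0.0586). Together with Myh11, Tpm4, Des, Srf, Kcnmb1 and Csrp2 they were the 9 genes that passed in none of the 6 treatment comparisons.

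Between 24 h and 6 h, 12 of the 34 genes were called in injured BALF, 4 in uninjured BALF and 1 in media only. In injured BALF 11 fell and 1 rose, where 14.2% of all genes were called lower and 12.8% higher. Those that fell were 7 filament genes (Acta2, Actg2, Tagln, Cnn1, Myl9, Tpm1 and Tpm2), the regulatory genes Csrp1 and Csrp2, and the linkers Itga8 and Vcl. Acta2 fell by 0.79 ± 0.18 (edgeR adjusted p = 0.00135), and Csrp1 by 0.80 ± 0.14 (edgeR adjusted p = 7.4e-05), without overlap between the times. Tagln fell by 0.67 ± 0.13 (edgeR adjusted p = 0.000323) and Cnn1 by 0.96 ± 0.23 (edgeR adjusted p = 0.00234). Ppp1r12b rose by 0.39 ± 0.11 (edgeR adjusted p = 0.0117). Over the 34 the median was -0.38, against 0.01 over all genes, and 7 genes were lower without overlap, against 8.87% of all genes. Without female injured BALF 24 h replicate 3, 9 genes passed, and Itga8, Myl9 and Vcl lost their calls there, with adjusted p of 0.0976, 0.0933 and 0.0879.

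In uninjured BALF 1 gene was lower and 3 were higher at 24 h than at 6 h, where 15.5% of all genes were called lower and 15.2% higher. Csrp2 fell by 0.53 ± 0.16 (edgeR adjusted p = 0.0135). Ppp1r12b rose by 0.55 ± 0.12 (edgeR adjusted p = 0.000601), Synpo2 by 0.57 ± 0.19 (edgeR adjusted p = 0.0205) and Limch1 by 0.94 ± 0.33 (edgeR adjusted p = 0.0331). These 4 calls became 2 without male uninjured BALF 24 h replicate 1. In media only Csrp2 was the 1 gene called, lower at 24 h by 0.74 ± 0.16 (edgeR adjusted p = 0.00812), where 3.33% of all genes were called lower and 3.51% higher. Without female media only 24 h replicate 1, 5 genes were called there.

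Whether an effect itself differed between the times was tested as the 24 h effect minus the 6 h effect. For injured BALF against media, Csrp1 fell further at 24 h, with a difference of -0.75 ± 0.19 (edgeR adjusted p = 0.0294), and so did Tpm2, with -0.62 ± 0.16 (edgeR adjusted p = 0.0313), where 1.45% of all genes were called lower. These were lost without any of 8 and 13 libraries, up to adjusted p of 0.0646 and 0.0705 without male injured BALF 6 h replicate 2, and neither passed with libraries 1 and 2 summed. For uninjured BALF against media, the fall of Ppp1r12b at 6 h was smaller at 24 h, with a difference of 0.65 ± 0.16 (edgeR adjusted p = 0.0316), where 0.692% of all genes were called higher; this was lost without any of 12 libraries, up to an adjusted p of 0.0685. For injured against uninjured BALF edgeR and DESeq2 each called 0 of 34, where edgeR called 0.239% of all genes at an adjusted p under 0.05. An unadjusted p under 0.05 was seen for 6 of the 34, and the share of all genes at that looser level is not given here. The fall of 8 genes at 24 h and of none at 6 h is thus not shown to differ between the times.

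**Figure D4:**
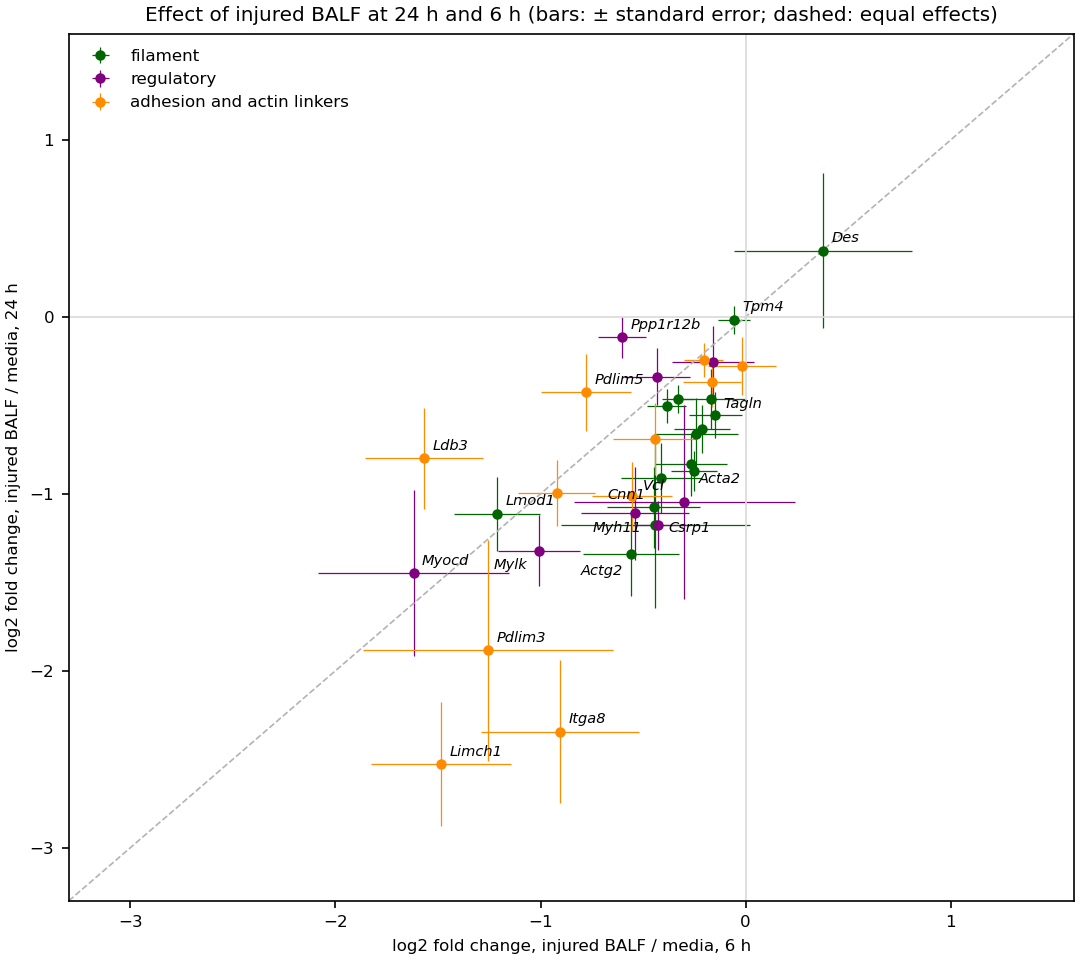
Log2 fold change of injured BALF against media at 6 h (x axis) and 24 h (y axis) for the 34 genes, with bars of ± 1 SE and the dashed line of equal effects; colours give the class. Csrp1, at -0.42 on the x axis and -1.18 on the y axis, lies below the line, and Ldb3 and Ppp1r12b lie above it.

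No difference in these effects between female and male cells passed the test. The difference of the treatment effect between the sexes passed for 0 of 34 genes by edgeR in each of 6 comparisons, by DESeq2 also for 0, where 0% of all genes were called. Des alone had an unadjusted p under 0.05 in 1 of them, with a difference of -2.07 ± 0.88, female minus male, in injured against uninjured BALF at 24 h (edgeR adjusted p = 1.0). With 3 libraries of each sex per group, this design gives wide errors for such differences.

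Around the contractile genes, further lists of the same machinery were counted in injured BALF against media at 24 h. Over all genes, 11.5% were called higher and 12.2% lower in that comparison, and shares of a list near these are no result about it. Of 17 genes of contraction signalling, 2 rose and 5 fell, with a median of -0.21. Rnd1, a GTPase that opposes RhoA, rose by 1.15 ± 0.19 (edgeR adjusted p = 4.09e-05), while Prkg1, the cGMP-dependent kinase that relaxes smooth muscle, fell by 1.14 ± 0.20 (edgeR adjusted p = 0.000117). Ppp1r12a, the main targeting subunit of myosin phosphatase, fell by 0.50 ± 0.12 (edgeR adjusted p = 0.00265). Of 23 cofactors and targets of SRF outside the 34, none rose and 9 fell, with a median of -0.30. Itga1, integrin alpha-1, fell by 1.90 ± 0.19 (edgeR adjusted p = 8.16e-08), and Sorbs3, an adaptor of adhesions that binds vinculin, by 1.19 ± 0.13 (edgeR adjusted p = 2.52e-07). Of 16 non-muscle actin and myosin genes, none rose and 3 fell, with a median of -0.24, and Myh10, non-muscle myosin IIB, fell by 1.31 ± 0.23 (edgeR adjusted p = 0.000104). Against uninjured BALF at 24 h, where 2.38% of all genes were called higher and 2.04% lower, the same lists gave 1 rise, 5 falls and no call in that order, with Rnd1 up by 0.97 ± 0.18 (edgeR adjusted p = 0.00157) and Sorbs3 down by 0.80 ± 0.13 (edgeR adjusted p = 0.000367). Against uninjured BALF at 6 h they gave 2 rises, 2 falls and no call, where 1.97% of all genes were called higher and 1.46% lower. The log2 fold change there was 1.63 ± 0.19 for Rnd1 (edgeR adjusted p = 1.73e-06) and 0.37 ± 0.09 for Rnd3 (edgeR adjusted p = 0.0208). For Klf4 it was -0.795 ± 0.141 (edgeR adjusted p = 0.000616) and for Synm -0.82 ± 0.20 (edgeR adjusted p = 0.016).

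Markers of cell types were counted in the same comparisons. In injured BALF against media at 24 h, 11.5% of all genes were called higher and 12.2% lower, and shares of markers near these are no result about them. Of 9 pericyte markers, 7 were tested, and in injured BALF against media at 24 h 5 fell, among them Cd248 by 1.56 ± 0.21 (edgeR adjusted p = 4.9e-06) and Pdgfrb by 0.65 ± 0.16 (edgeR adjusted p = 0.00437). Their summed level at 24 h was 581 to 981 CPM (median 828) in injured BALF, 952 to 1496 (median 1257) in uninjured BALF and 1328 to 2532 (median 1559) in media only. Higd1b is at 0 in every library, and Kcnj8 and Abcc9 are near it. Of 6 macrophage markers 2 rose, with sums of 52.8 to 68.7 CPM in injured BALF and 13.3 to 53.9 CPM in media only at 24 h. Of 5 neutrophil markers only S100a8 and Camp passed the filter on low counts, and both rose. The sums of the 5 were 1.97 to 5.71 CPM in injured BALF and 0.108 to 0.939 CPM in media only. Camp had a median of 0.115 CPM and was at 0 in 8 libraries. A gene so low can pass the filter through the group where it is high, so which markers were tested may depend on the rise itself. Of 6 endothelial markers 1 fell, with sums of 22.5 to 144 CPM in injured BALF and 8.31 to 113 CPM in media only, and of 6 lung fibroblast markers tested 1 rose and 1 fell. The whole lung fibroblast list summed to 9632 to 14830 CPM in injured BALF and 8391 to 30110 CPM in media only at 24 h. None of the 6 mesothelial, 1 epithelial and 2 striated muscle markers tested was called. The lowest macrophage sum in media only at 24 h came from female replicate 2, 1 of the 4 libraries whose description numbers begin differently from the rest. With uninjured BALF as the comparison at 24 h, 2.38% of all genes were called higher and 2.04% lower. There 2 of the 7 pericyte markers tested fell, Cd248 by 1.04 ± 0.21 (edgeR adjusted p = 0.00294) and Mcam by 1.19 ± 0.32 (edgeR adjusted p = 0.0275). Dcn, decorin of the matrix and a fibroblast marker, rose there by 1.37 ± 0.25 (edgeR adjusted p = 0.00121), and Camp, a neutrophil granule peptide, by 2.71 ± 0.69 (edgeR adjusted p = 0.0192) at levels of at most 1.66 CPM in any library. No macrophage, endothelial, mesothelial, epithelial or striated muscle marker among those tested was called in that comparison. Between injured and uninjured BALF at 6 h the 1 marker called was Csf1r of macrophages, lower by 0.73 ± 0.20 (edgeR adjusted p = 0.0434). Over all genes, 1.46% were called lower and 1.97% higher in that comparison. The part of these markers in the contractile results was not tested.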

How the data were processed

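A stranded mRNA kit was used for the 36 RNA-seq libraries, per the labels' protocols. The authors deposited whole-number counts per gene and library; STAR 2.5.2b, RSEM 1.2.31, DESeq2 and GRCm38 are named in the submitters' processing notes, and their roles, the annotation release and the strand setting are not given in the sources used here. If RSEM made the counts they are rounded estimates, so close paralogs (actins, tropomyosins, calponins) may share reads. GENCODE M21 named 48435 of 48795 identifiers; the rest held at most 0.0108% of a library's counts. Columns of other samples numbered 0.

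Counts of all genes were fitted with edgeR 4.0.16 (R 4.3.3): filterByExpr, TMM scaling, 12 groups of fluid, time and sex, and quasi-likelihood F tests of contrasts averaged over sex, adjusted by Benjamini-Hochberg over 15901 genes. The standard error of a log2 fold change is its size over the root of F. RPKM used summed exon lengths. Tested on simulated data for the 6 h contrast of injured and uninjured BALF (15261 genes in the fit), the same steps recovered 23, 41, 50 and 50 of 50 genes changed 1.5-, 2-, 4- and 8-fold, with 9 false calls. The simulated libraries were drawn independently of each other, and genes of very low level were left unchanged. These figures therefore do not cover libraries that resemble each other, outlying libraries or genes of very low level. DESeq2 1.42.0, other scalings, filters and sets of libraries were alternatives.

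All 34 genes are accounted for. Full values are given for those called between injured and uninjured BALF and for Acta2, Tagln, Cnn1, Myh11, Myl9, Tpm1, Myocd and Srf, other called genes are named with their fold change, and from other lists at most 4 genes of lowest p are named per comparison. The genes and lists were chosen with earlier results of these data known. Members that overlap a protein-coding gene on the other strand are Tagln, Vcl, Kcnmb1 and Ppp1r12b. Some values per group were added beyond this rule after they were seen (Lmod1, Ppp1r12b, Des).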

Additional observations from a re-analysis of the deposited data

Results flagged for a closer look

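In each of 204 sets (34 genes in 6 groups of 6 libraries), the highest and lowest library were compared with the rest by their gap relative to the range. In 33 sets a library lay farther out than Dixon's critical value; chance gives about 1 in 20 sets, and sets of one library are not independent.

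Female uninjured BALF 24 h replicate 1 was low for 9 genes: Tagln at 1648 CPM, Cnn2 at 489 CPM, Myl9 at 356 CPM, Tpm1 at 1166 CPM, Tpm2 at 527 CPM, Lmod1 at 73.3 CPM, Flna at 2983 CPM, Pdlim7 at 111 CPM and Tgfb1i1 at 27.3 CPM. Female injured BALF 24 h replicate 3 was low for Myl9 at 329 CPM, Flna at 3225 CPM, Actn1 at 971 CPM, Pdlim5 at 278 CPM and Ldb3 at 8.55 CPM, and high for Csrp2 at 43.7 CPM. Female media only 24 h replicate 3 was low for Myl9 at 611 CPM, Tpm1 at 1347 CPM and Tpm2 at 793 CPM. Female media only 24 h replicate 1 was high for Smtn at 394 CPM, Mylk at 525 CPM, Kcnmb1 at 36.3 CPM, Synpo2 at 54.0 CPM, Pdlim7 at 310.2 CPM and Tgfb1i1 at 156 CPM. Female media only 6 h replicate 3 was low for Lmod1 at 181 CPM, Srf at 82.6 CPM, Vcl at 1058 CPM and Flna at 4545 CPM. Male injured BALF 6 h replicate 1 was low for Pdlim7 at 129.5 CPM. Des was high in male replicate 3 of injured BALF at 6 h at 165 CPM, of uninjured BALF at 6 h at 159.7 CPM and of injured BALF at 24 h at 158 CPM, and low in male uninjured BALF 24 h replicate 3 at 16.96 CPM.

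The 24 h and 6 h effects differed for 3 genes by the test of the difference itself. The difference (24 h minus 6 h) was -0.62 for Tpm2 and -0.75 for Csrp1 in injured BALF against media, and 0.65 for Ppp1r12b in uninjured BALF against media.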

How the results depend on the processing

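None of the 70 calls of the 34 genes in the 12 comparisons changed direction under the alternatives run; the lists of other genes were not recomputed under them. Of the 70 calls, DESeq2 kept 70, another scaling (RLE) 69, no filter on low counts 69, sex ignored 68, and leaving out the 4 libraries whose description numbers begin differently (male uninjured BALF 24 h replicate 3, female media only 24 h replicate 2 and male media only replicate 3 at both times) or fitting only the groups compared 61 each; 35 remained with libraries 1 and 2 of each group summed, and 26 with the closest pair of each group summed, an alternative chosen after seeing the data. Without all libraries of number 1, 2 or 3, 35, 23 and 67 remained. Fewer libraries enter those fits; beyond that the cause was not tested. A block for replicate number within sex gave 14 genes for injured against uninjured BALF at 24 h in place of 8 (adding Acta2, Tagln, Cnn1, Cnn2, Lmod1 and Synpo2). It gave 1 for uninjured BALF against media at 24 h in place of 0, and kept all 70 calls. The labels do not say whether same-numbered libraries share a source of cells. Of 90 same-numbered pairs of one sex, 50 deviated together at a correlation over 0.1. The median correlation was 0.271 for these pairs and -0.052 between different numbers. The main fit used no pairing, and a fit that ignores a real one can miss calls. With libraries 1 and 2 summed the counts were 1 (injured against uninjured BALF at 24 h, in place of 8), 3 (uninjured BALF against media at 6 h, in place of 7), 7 (24 h against 6 h in injured BALF, in place of 12), and 0 for 24 h against 6 h in uninjured BALF (in place of 4) and in media (in place of 1). With the closest pair summed they were, in that order, 0, 1, 4, 0 and 0, and injured BALF against media gave 6 at 6 h and 15 at 24 h, in place of 12 and 23. Fitting only the groups compared gave 11 for uninjured BALF against media at 6 h. For the differences of effects, the 2 for injured BALF and the 1 for uninjured BALF against media became 0 without those 4 libraries and under either summing, and that for uninjured BALF also when only its groups were fitted. Leaving out libraries, singly or by number, gave 0 to 16 genes for injured against uninjured BALF at 24 h, 6 to 15 and 12 to 27 for injured BALF against media at 6 h and 24 h, 1 to 10 and 0 to 6 for uninjured BALF against media, 3 to 16, 0 to 10 and 0 to 5 for 24 h against 6 h in injured BALF, uninjured BALF and media, 0 to 1, 0 to 4 and 0 to 2 for the differences of effects in the order injured against uninjured BALF, injured BALF against media and uninjured BALF against media, and 0 to 1 for the sexes. At these depths Myocd and Pdlim3, near 1 CPM, limit what can be called.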

Other observations

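Receptors and channels that act on smooth muscle tone also differed. Of 24 such genes 21 were tested, and in injured BALF against media at 24 h 2 rose and 11 fell, with a median log2 fold change of -0.91, where 11.5% of all genes were called higher and 12.2% lower. The 2 that rose were the bradykinin receptors, Bdkrb1 by 3.42 ± 0.34 (edgeR adjusted p = 5.09e-08) and Bdkrb2 by 3.25 ± 0.44 (edgeR adjusted p = 4.13e-06). Those that fell included the alpha-1 adrenergic receptors Adra1b, by 1.64 ± 0.21 (edgeR adjusted p = 1.73e-06), and Adra1d, by 1.78 ± 0.33 (edgeR adjusted p = 0.000263). Against uninjured BALF at 24 h 2 rose and 2 fell, where 2.38% of all genes were called higher and 2.04% lower. Bdkrb1 rose by 1.74 ± 0.31 (edgeR adjusted p = 0.000782), Bdkrb2 by 1.94 ± 0.40 (edgeR adjusted p = 0.00319), Adra1b fell by 1.10 ± 0.21 (edgeR adjusted p = 0.00149), and Tbxa2r, the thromboxane receptor, fell by 1.08 ± 0.32 (edgeR adjusted p = 0.0491). In uninjured BALF against media at 24 h Bdkrb1 rose by 1.69 ± 0.33 (edgeR adjusted p = 0.00799).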
